A study of Mus musculus with 4 samples.

Results

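The 9 genes described here make or load major histocompatibility complex (MHC) class II molecules: Cd74, H2-Aa, H2-Ab1, H2-Eb1, H2-DMa, H2-DMb1, H2-DMb2, H2-Oa and Ciita. They were listed by symbol as genes of 1 pathway, and all 9 were found by symbol among the 28692 genes of the count table. Droplet single-cell RNA sequencing had been run on live CD45+/CD11b+ cells, that is, microglia and other myeloid cells, sorted from the cortex and hippocampus of 4 male C57BL/6J mice at postnatal day 90. Every mouse had been given phosphate-buffered saline (PBS) by the tail vein, 24 h before it was killed according to the labels, although the study's methods give another interval. All tissue was dispersed by cold Dounce homogenisation, which is mechanical and uses no enzyme, so the libraries formed 1 group (cold Dounce, PBS, n = 4 mice, 1 library each). No untreated or challenged animals were part of this group, and comparisons were therefore made between libraries, between kinds of cell and between genes.

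Class II molecules display peptides from ingested proteins to CD4+ T cells. Their α and β chains assemble on the invariant chain, which guides them to endosomes, where the H2-DM heterodimer exchanges the last fragment of the invariant chain for a peptide and the H2-O heterodimer restrains H2-DM. Transcription of these genes depends on CIITA, a co-activator recruited to a set of promoter elements (the X and Y boxes among them) that class II genes share. Microglia of the healthy adult brain are known for little class II, whereas dendritic cells and part of the macrophages and monocytes at the borders of the brain carry much of it.

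The 4 libraries held 13138 barcodes, and 13002 cells remained at 400 or more genes and at most 10% mitochondrial UMIs (unique molecular identifiers, each standing for 1 captured RNA molecule). The libraries contributed 2576 to 3692 cells, 5841671 to 11267195 UMIs and a median of 1905 to 2936 UMIs per cell. Any pair of libraries shared between 6 and 21 barcode sequences. Clustering without the 9 genes gave 8 clusters. In 7 of them, with 12893 cells, the microglial markers P2ry12 and Tmem119 were found in 99.9% and 99.3% of cells, and these are called microglia-like. The remaining 109 cells (25, 19, 19 and 46 in replicates 1 to 4) formed a cluster led by Pf4, Plac8, S100a6, Ifitm2 and Crip1. This cluster was given no cell type name, because markers of several types were found in 10% or more of its cells: 9 of 9 of border macrophages (Mrc1 in 46.8%, Pf4 in 50.5%), 4 of 8 of monocytes (Ccr2 in 37.6%, Ly6c2 in only 5.505%) and 1 of 6 of dendritic cells (Cd209a in 11.01%, Flt3 in only 3.67%). P2ry12 was also found in 76.2% of its cells, and how far doublets or free RNA contributed was not tested. Replicate 4 stood apart in another respect too, since 34 activation genes from the study's lists summed to 3184, 3270, 3310 and 5489 CPM in replicates 1 to 4, and 17 of the 21 at 10 CPM or more were highest in it.

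Of the 9 genes, 7 lie in the class II region of chromosome 17 on mouse build GRCm38 and all are annotated as protein coding. H2-Oa is at chr17:34092340-34095234, H2-DMa at chr17:34119541-34139101, H2-DMb2 at chr17:34143307-34151555, H2-DMb1 at chr17:34153072-34160230, H2-Ab1 at chr17:34257689-34269419, H2-Aa at chr17:34282744-34287823 and H2-Eb1 at chr17:34305867-34316674. Ciita is at chr16:10480059-10528418, and Cd74 is on another chromosome. H2-Aa is the only one of the 9 on the minus strand. H2-DMb1 and H2-DMb2 are near-identical neighbours, so their reads cannot always be told apart. The annotated span of H2-DMa overlaps Brd2 on the opposite strand, and how the counting treated strand is not given in the sources used here.

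The promoter windows below are shown because letters of the shared elements stood in genes of both kinds, H2-DMb1 and H2-Oa as well as H2-Aa and H2-Eb1, whose RNA was spread over cells in very different ways. They come from RefSeq promoters on GRCm38.p6 (250 bases before to 50 bases after an annotated start), which held 6 of the 9 genes. Each runs 5′ to 3′ in the direction of the gene, and capitals mark the letters GNAAC (the end of the X box) and ATTGG (the Y box).
H2-Aa: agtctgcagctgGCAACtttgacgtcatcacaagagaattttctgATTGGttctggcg
H2-Eb1: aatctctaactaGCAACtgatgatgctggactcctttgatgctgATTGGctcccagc
H2-DMb1: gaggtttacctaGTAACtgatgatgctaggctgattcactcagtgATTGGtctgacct
H2-DMb2: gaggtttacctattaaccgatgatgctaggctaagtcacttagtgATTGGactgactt
H2-Oa: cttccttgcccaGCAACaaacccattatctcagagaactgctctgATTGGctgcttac

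These windows lie at chr17:34287859-34287916 (H2-Aa, minus strand), chr17:34305764-34305820 (H2-Eb1), chr17:34153085-34153142 (H2-DMb1), chr17:34145114-34145171 (H2-DMb2) and chr17:34092291-34092348 (H2-Oa). GNAAC stood 33 bases before ATTGG in H2-Aa, H2-DMb1 and H2-Oa and 32 bases before it in H2-Eb1. On either strand, ATTGG alone was in 37.4% of 32851 promoters. CCNNGNNAC, the longer X box, was in 47.4%, and it was followed by ATTGG at 20 to 45 bases in 1.43%, H2-DMb1 and H2-Oa among them. GNAAC with the same spacing, letters chosen after the sequences were seen and overlapping the longer X box, was in 4.23%, among them H2-Aa, H2-Eb1, H2-DMb1 and H2-Oa. In H2-DMb2 the pair was not found, and its window differed from that of H2-DMb1 at 7 of 58 bases. Both H2-DMa windows (chr17:34122582-34122881 and chr17:34125268-34125567) lacked the pair as well. They lie inside the annotated span of H2-DMa, and the windows of H2-DMb1 and H2-DMb2 printed above likewise lie inside the spans of those genes. Other starts of these genes were not examined. A match of letters is a description of the window and not a bound site.

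The genes of the peptide exchange step were expressed at nearly the same level in every mouse. Levels are given as CPM, UMIs summed over cells and scaled to the same total in every library. They count 3′ ends and are not per length, so they are compared between samples and not between genes. H2-DMa, the α chain of H2-DM, stood at 399, 393, 389 and 381 CPM in replicates 1 to 4, a mean of 391 ± 7.61 (SD, n = 4). H2-DMb1, its β chain, stood at 225, 205, 238 and 230 CPM (224 ± 14.2). H2-Oa, the α chain of H2-O, stood at 57.3, 61.2, 68.0 and 59.7 CPM (61.5 ± 4.59). The highest library was 1.05 times the lowest for H2-DMa, 1.16 times for H2-DMb1 and 1.19 times for H2-Oa. H2-DMb2, a second β chain gene, was low, with 9.35, 8.70, 11.8 and 12.9 CPM from 66 to 116 UMIs a library.

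The invariant chain and the classical class II chains varied between libraries instead, and did so together. Cd74, which encodes the invariant chain, stood at 211, 118, 217 and 623 CPM (292 ± 225). H2-Aa, the α chain of the I-A molecule, stood at 69.3, 34.7, 66.8 and 191 CPM (90.4 ± 68.9). Replicate 4 was the highest and replicate 2 the lowest in both. H2-Ab1, the β chain of I-A, stood at 80.6, 47.4, 84.1 and 235 CPM, and H2-Eb1, the β chain of I-E, at 52.9, 24.1, 50.5 and 147 CPM, in which the highest and lowest libraries were the same again. Without replicate 4 the means of Cd74, H2-Aa, H2-Ab1 and H2-Eb1 fell to 182, 56.9, 70.7 and 42.5 CPM. The study's methods report extra time at room temperature for the final animal sorted. The labels do not say which library came from that animal. Each library holds a single mouse and a single sort, so differences between mice and differences in handling cannot be told apart. The part of handling in the values of replicate 4 was not tested. Ciita, the co-activator, was close to the limit of detection, with 2, 1, 1 and 5 UMIs per library against a floor of 3 UMIs.

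**Figure D1:**
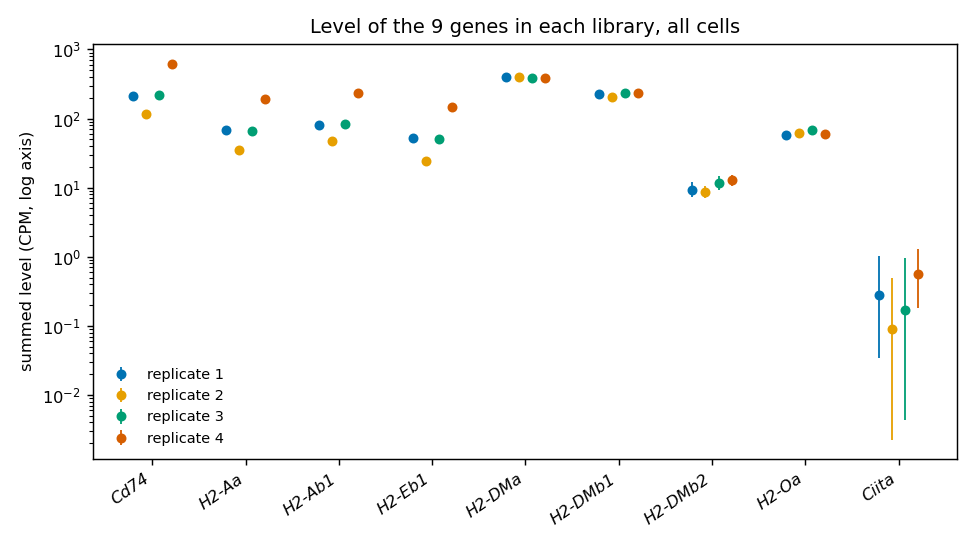
Level of each of the 9 genes in each library, as CPM summed over all cells on a log axis, with exact Poisson intervals at 95% as bars (most are smaller than the points). The points of H2-DMa lie within 381 to 399 CPM, while those of Cd74 run from 118 to 623 CPM with replicate 4 on top.

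Dixon's range test, which asks whether the gap between 1 library and its nearest neighbour is too large a part of the whole range, was applied to log2(CPM + 1). Of the 8 genes at a mean of 10 CPM or more, 0 had a library apart in all cells, against 4.62% of the 7656 genes tested. The gap was 0.63 of the range for Cd74, 0.60 for H2-Aa, 0.64 for H2-Ab1 and 0.57 for H2-Eb1, with replicate 4 on the high side each time. Replicate 2 lay below replicates 1 and 3 in each of them, which widened the range.

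The same division was seen in how RNA was spread over cells. H2-DMa, at 1 or more UMIs, was found in 50.4%, 65.5%, 54.3% and 59.8% of cells, and H2-DMb1 in 34.5%, 44.1%, 39.6% and 46.1%. If the UMIs of H2-DMa had fallen on cells in proportion to each cell's total (called here an even spread), 53.3%, 67.8%, 56.8% and 64.1% of cells would have held one. H2-DMa was thus found in nearly as many cells as its level and the depth allowed. In cells thinned to 1000 UMIs each the share was 30.9%, 32.5%, 30.4% and 30.2%, so the differences between the unthinned shares moved with depth. H2-Oa was found in 10.2% to 16.1% of cells (even spread, 10.6% to 16.9%).

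Cd74 was found in 5.84%, 7.31%, 5.67% and 14.9% of cells, although its level would have reached 33.6%, 29.7%, 38.0% and 80.2% of cells under an even spread. H2-Aa was found in 1.65%, 1.52%, 1.40% and 6.08% of cells, H2-Ab1 in 3.80%, 4.28%, 4.58% and 11.2%, and H2-Eb1 in 1.06%, 0.87%, 1.20% and 4.59%. In each of the 4 genes replicate 4 had the largest share of positive cells, and the other libraries lay close together. A single Cd74-rich cell held up to 547 Cd74 UMIs, whereas no cell held more than 14 UMIs of H2-DMa.

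The share of a gene's UMIs that lay in the 1% of cells highest in it (36, 37, 26 and 32 cells in replicates 1 to 4) put this on 1 scale. For Cd74 it was 87.5%, 81.2%, 90.1% and 88.8%, against an even-spread value of 7.63%, 7.97%, 6.92% and 4.03%. For H2-Aa it was 95.3%, 95.1%, 97.4% and 90.1%, for H2-Ab1 82.4%, 77.3%, 81.3% and 83.6%, and for H2-Eb1 99.5%, 100%, 98.3% and 91.4%. At least 77.3% of the RNA of each of these genes therefore came from 1% of the cells, in every mouse. For H2-DMa the share was 6.79%, 5.53%, 6.38% and 6.33%, against an even-spread value of 5.51%, 4.71%, 5.38% and 4.88%. For H2-DMb1 it was 8.18%, 6.59%, 7.93% and 8.30% (even spread, 5.93% to 7.25%) and for H2-Oa a mean of 14.9% ± 2.72 (SD, n = 4; even spread, 11.5% to 14.8%). The lowest ratio to the even-spread value over the 4 libraries was 1.17 for H2-DMa, and 1.72% of the 7656 genes at 10 CPM or more had a higher one (4.36% for H2-DMb1 and 9.57% for H2-Oa). These 3 genes thus lay a little above an even spread in every library, and more so than most genes. Within microglia-like clusters alone the lowest ratio was 1.08 for H2-DMa, 1.003 for H2-DMb1 and 1.05 for H2-Oa.

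H2-DMb2 had a high share (60.6%, 39.8%, 46.4% and 44.8%), but at its low level an even spread already gave 55.6%, 39.2%, 39.2% and 29.6%. The excess in replicate 4 came with 1 cell that held 20 of its 116 UMIs. That cell lay in the Pf4 and Plac8 cluster, held 547 Cd74 UMIs and 34 UMIs of the dendritic cell marker Cd209a, and had 1 UMI of H2-DMb1. Ciita, with 1 UMI per positive cell, allows no statement on its spread.

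**Figure D2:**
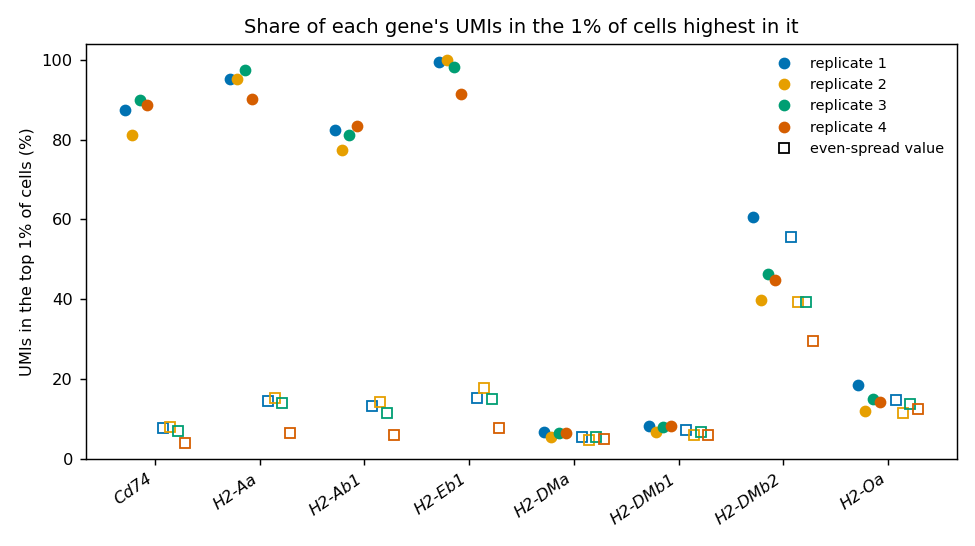
Share of each gene's UMIs in the 1% of cells highest in it (filled circles, 1 per library) and the value for an even spread over cells (open squares). Cd74, H2-Aa, H2-Ab1 and H2-Eb1 lie at 77.3% to 100%, far above their squares, while H2-DMa lies at 5.53% to 6.79%, close to them.

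The top 1% share of each of the other 8 genes was above that of H2-DMa in 4 of 4 libraries. The mean difference was 80.6 ± 3.53 percentage points (SD, n = 4) for Cd74, 88.2 ± 3.15 for H2-Aa, 74.9 ± 2.27 for H2-Ab1 and 91.1 ± 4.10 for H2-Eb1. It was 1.49 ± 0.38 percentage points for H2-DMb1. H2-DMa had been named beforehand as a gene found in most microglia, with the top 1% share as the measure. The comparison therefore describes that contrast and is no independent support for it. In the exact permutation test (sign flips, two-sided) every one of these 8 comparisons had p = 0.125, the smallest that 4 libraries can give, and 0.125 after Benjamini-Hochberg adjustment over the 8, so the design cannot pass 0.05. The even-spread value was 100% for Ciita in every library and 29.6% to 55.6% for H2-DMb2, so all of the difference for Ciita, and most of that for H2-DMb2, was already there in an even spread at their level.

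Across all genes such concentration was rare. A share of at least 2 times the even-spread value in every library was reached by 16 of 7656 genes (0.209%; 0.216% of the 7421 whose even-spread value was low enough to allow it), and 4 of these were Cd74, H2-Aa, H2-Ab1 and H2-Eb1. Their lowest ratios over the 4 libraries were 10.2, 6.29, 5.40 and 5.68, and the median of the lowest ratios over all genes was 0.97. The other 12, named after their values were seen, were Apoe, Lyz2, Ifitm2, Ifitm3, Klf2, Lgals3, Ccl3, Ccl4, Ccl12, Ifi27l2a, Rtp4 and Exosc2. H2-DMa, H2-DMb1 and H2-Oa did not reach 2 times. H2-DMb2 could not have, with an even-spread value of 55.6% in replicate 1, and Ciita was too low to be counted. H2-Aa and H2-Eb1 reached 10 CPM only through the Pf4 and Plac8 cluster, with 9.15 and 6.28 CPM in microglia-like clusters. The count was 16 without the filter on level as well. Because the genes were listed with this measure in view, the count describes them and is no test.

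**Figure D3:**
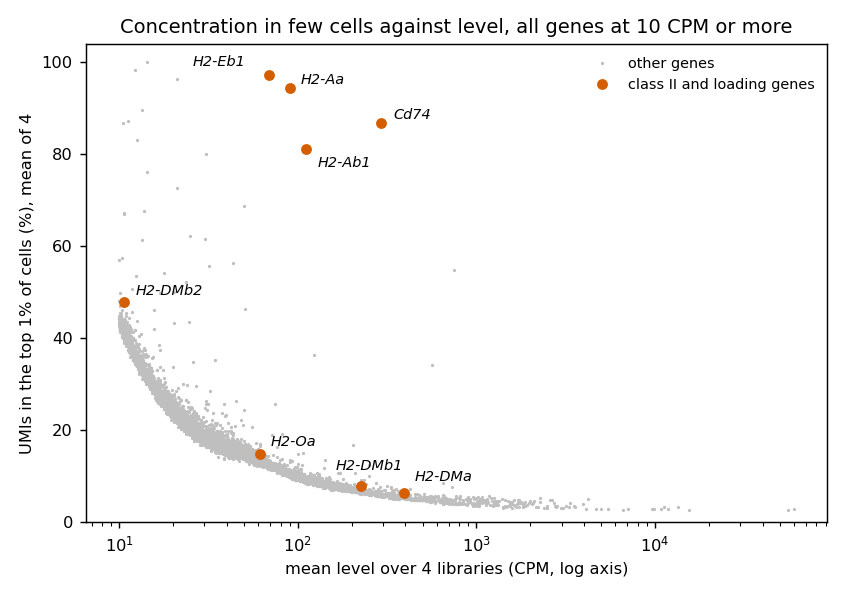
Mean share of UMIs in the top 1% of cells against mean level (CPM, log axis), both over 4 libraries, for the 7656 genes at a mean of 10 CPM or more (grey) and the 8 genes of the class II set among them (orange). H2-DMa, H2-DMb1 and H2-Oa lie at or close to the band that most genes form, and Cd74, H2-Aa, H2-Ab1 and H2-Eb1 lie far above it.

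The cells that held the classical class II RNA were mostly those of the Pf4 and Plac8 cluster, which made up 109 of 13002 cells. It held 83.2%, 68.8%, 84.6% and 88.0% of Cd74 UMIs, and 89.8%, 86.4%, 92.1% and 90.1% of H2-Aa UMIs. For H2-Eb1 the share was 90.5% to 92.2% and for H2-Ab1 68.5% to 83.0%. By contrast it held 1.95%, 1.56%, 2.73% and 4.84% of H2-DMa UMIs, and 2.08% to 5.93% of H2-DMb1 UMIs. At least 95.2% of H2-DMa RNA was in microglia-like cells in every mouse. Because the cluster was found in the same cells, these values describe it and are no test.

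Inside the Pf4 and Plac8 cluster Cd74 stood at 17996, 6716, 10245 and 26714 CPM, against 35.9, 37.1, 34.0 and 76.1 CPM in the microglia-like clusters. H2-Aa stood at 2492 to 8387 CPM there and at 4.76 to 19.3 CPM in microglia-like clusters, H2-Ab1 at 2698 to 9507 and 15.1 to 40.8 CPM, and H2-Eb1 at 1821 to 6475 and 2.25 to 14.2 CPM. None of these ranges overlapped. H2-DMa was 798, 509, 591 and 899 CPM in the cluster and 395, 392, 385 and 370 CPM in microglia-like clusters, 1.82 ± 0.50 times higher. H2-DMb1 was 354 to 666 CPM in the cluster and 203 to 235 CPM in microglia-like clusters, 2.22 ± 0.62 times higher. Both H2-DM chains were thus higher in every library of the cluster as well, but by far less than the classical chains.

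H2-Oa went the other way, with 43.5, 7.37, 57.2 and 16.2 CPM in the cluster and 57.4, 61.9, 68.2 and 60.6 CPM in microglia-like clusters. Only 13 H2-Oa UMIs were found in the cluster, and the highest library there (57.2 CPM) almost met the lowest of the microglia-like clusters (57.4 CPM). H2-DMb2 was 14.7 to 119 CPM there and 8.62 to 11.5 CPM in microglia-like clusters, and without the cell named above replicate 4 stood at 11.4 CPM from 2 UMIs, which lies inside the range of the microglia-like clusters. Of the 5 genes at 10 CPM or more in microglia-like clusters, Cd74, H2-Ab1, H2-DMa and H2-DMb1 lay higher in the cluster in all libraries than in microglia-like clusters in any (6.21% of 7638 genes did), and H2-Oa lay lower (19.4%). H2-Aa, H2-Eb1 and H2-DMb2 reached 10 CPM over all cells only through the cluster and are not counted. Ciita gave 8 of its 9 UMIs in the cluster and 1 in a microglia-like cell of replicate 4.

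**Figure D4:**
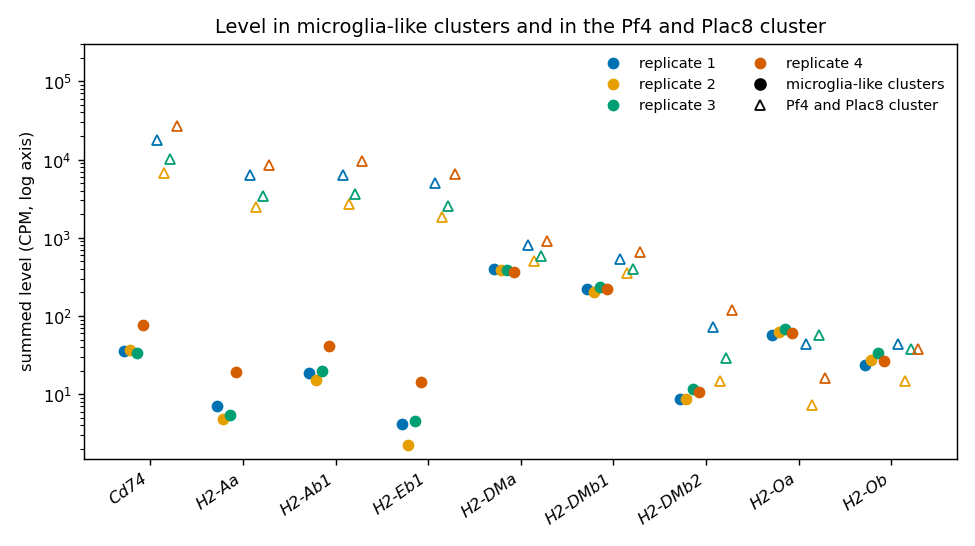
Level of each gene in the microglia-like clusters (filled circles) and in the Pf4 and Plac8 cluster (open triangles), in CPM on a log axis, 1 point per library; H2-Ob, the β chain of H2-O, is shown beside H2-Oa. Cd74 differs by 181 to 501 times between the classes, H2-DMa by 1.30 to 2.43 times, and the triangles of H2-Oa lie below its circles.

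The Pf4 and Plac8 cluster was itself divided. In it 55 cells had 10 or more Cd74 UMIs and 54 had fewer, 27 of them none. In cells with 10 or more, H2-DMa stood at 1400, 983, 1520 and 1327 CPM, against 123, 333, 311 and 136 CPM in the others. H2-DMb1 stood at 1015, 792, 1109 and 929 CPM, against 0, 192, 186 and 196 CPM. The H2-DM chains therefore followed Cd74 within the cluster, and in its Cd74-poor cells H2-DMa lay below the 370 to 395 CPM of microglia-like clusters in every library, from 4 to 33 UMIs a library. H2-Oa gave 9 UMIs in the Cd74-rich cells and 4 in the others. Ciita UMIs were found in 8 of the 55 Cd74-rich cells and in 0 of the 54 others, which allows a share of cells with a UMI of up to 5.56% and sets no limit on cells that express the gene. P2ry12 stood at 741, 1830, 205 and 583 CPM in the Cd74-rich cells and at 647, 3494, 2870 and 1839 CPM in the others, lower in 3 of 4 libraries, while microglia-like cells with under 10 Cd74 UMIs held 5467 CPM over all libraries.

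Cells with 10 or more Cd74 UMIs numbered 10, 11, 7 and 37 in replicates 1 to 4, or 0.28%, 0.30%, 0.27% and 1.17% of cells. They held 82.0%, 74.4%, 85.3% and 89.8% of all Cd74 UMIs. Replicate 4, which had the highest Cd74 level, thus had the largest number of these cells. The exact binomial intervals of the first 3 libraries (0.11% to 0.56%) did not reach that of replicate 4 (0.83% to 1.61%). Such intervals cover counting error only and hold no spread between mice or sorts. Sums over a library alone cannot tell more such cells from more RNA per cell. In the Cd74-rich cells of the Pf4 and Plac8 cluster (10, 8, 6 and 31 cells), Cd74 stood at 33560, 24740, 43590 and 41600 CPM. Replicate 4 was not the highest there, among cells chosen by their Cd74 count, and the value of replicate 3 rested on 6 cells. Over the whole cluster (26714 CPM) and in microglia-like clusters (76.1 CPM) replicate 4 was the highest. More such cells and more RNA per cell were thus not told apart. The activation genes were highest in the same library, as given above, and their part in this was not tested.

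Microglia-like cells were not free of class II RNA. In them 92.1% ± 4.10 of cells (SD, n = 4) had no Cd74 UMI, 834 cells had 1, 108 had 2, 62 had 3 to 9 and 10 had 10 or more. The share with no Cd74 UMI was 94.7%, 93.0%, 94.7% and 86.1%, lowest in replicate 4. The 10 Cd74-rich microglia-like cells (0, 3, 1 and 6 by replicate) held H2-DMa at 900 CPM and P2ry12 at 1991 CPM, with P2ry12 and Tmem119 found in all 10. Their H2-Aa, at 382 CPM from 14 UMIs, was well under the 12400 CPM of the Cd74-rich cells of the Pf4 and Plac8 cluster. No doublets had been removed, and their part in these 10 cells was not tested.

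Within the microglia-like clusters Cd74 passed Dixon's range test, with replicate 4 high at 76.1 CPM and a gap of 0.89 of the range. It was the 1 gene of 5 at 10 CPM or more there, against 4.79% of all 7638 genes tested. H2-Aa (7.16, 4.76, 5.40 and 19.3 CPM), H2-Ab1 (15.1 to 20.05 CPM in replicates 1 to 3 and 40.8 CPM in replicate 4) and H2-Eb1 (4.15, 2.25, 4.53 and 14.2 CPM) were also highest in replicate 4. The Cd74-rich cells outside these clusters were most numerous in the same library, and the activation genes in microglia-like clusters summed to 3177, 3267, 3320 and 5508 CPM. The part of free RNA, or of what raised the activation genes, in these counts was not tested.

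The proportions of the chains also differed between the classes. Per 100 Cd74 UMIs, the Pf4 and Plac8 cluster held 35.4, 37.1, 33.4 and 31.4 H2-Aa UMIs, and the microglia-like clusters 19.9, 12.8, 15.9 and 25.3. H2-Ab1 went the opposite way, with 35.01 to 40.2 in the cluster and 52.6, 40.7, 59.0 and 53.7 in microglia-like clusters. Per 100 H2-Aa UMIs there were 99.5 to 113 H2-Ab1 UMIs in the cluster and 212 to 371 in microglia-like clusters, ranges that do not overlap. H2-Ab1 was thus over-represented relative to its partner chain in microglia-like cells of every mouse. Likewise, 20.02% ± 5.22 of H2-Ab1 UMIs lay in cells without a Cd74 UMI, against 8.46% ± 1.78 for H2-Aa and 7.42% ± 0.37 for H2-Eb1. The H2-DM chains kept a nearer ratio, with 67.3 to 74.1 H2-DMb1 UMIs per 100 H2-DMa UMIs in the cluster and 51.7 to 60.9 in microglia-like clusters.

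**Figure D5:**
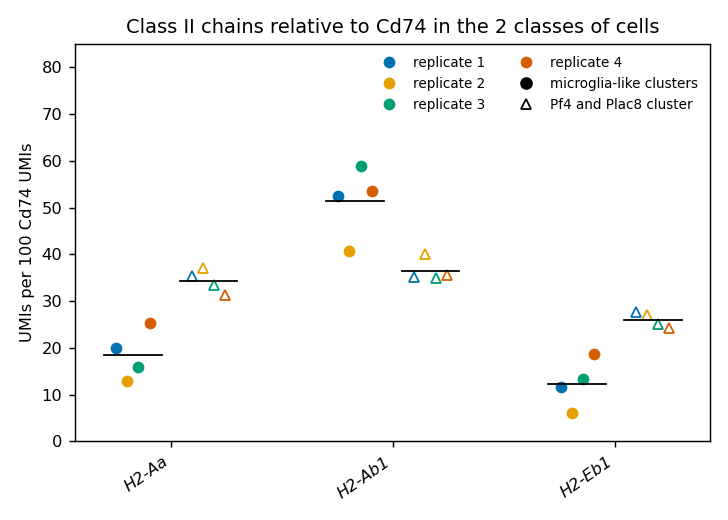
UMIs of the 3 classical class II chains per 100 Cd74 UMIs in microglia-like clusters (filled circles) and in the Pf4 and Plac8 cluster (open triangles), 1 point per library, with the mean as a line. H2-Aa and H2-Eb1 are lower in microglia-like clusters (12.8 to 25.3 and 6.05 to 18.6) than in the cluster, and H2-Ab1 is higher (40.7 to 59.0).

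Among the microglia-like clusters the mean level of H2-DMa ran from 301 to 538 CPM. In the 4 largest (1746 to 4783 cells) its means were 356 ± 8.43, 430 ± 9.72, 378 ± 26.8 and 381 ± 31.1 CPM (SD, n = 4), and the highest, in a cluster led by H2-D1 and Cd63, had a range (424 to 445 CPM) that overlapped that of the smallest of them (353 to 425 CPM) and not those of the other two (350 to 369 and 359 to 416 CPM). A cluster of 183 cells with a low median of 1056 UMIs had the highest mean H2-DMa (538 ± 48.0 CPM, range 479 to 591) and H2-Oa (132 ± 35.2 CPM). Its H2-DMa lay above every library of the other microglia-like clusters, but on 112 UMIs in all. Its Poisson intervals overlapped those of the H2-D1 and Cd63 cluster, as in replicate 3 (315 to 696 against 409 to 482 CPM). Its H2-Oa rested on 28 UMIs, and its lowest library (95.5 CPM) lay below replicate 2 of the cluster led by Ifit3 and Ifit1 (105 CPM). A cluster of 64 cells led by the chemokine Ccl4 and by Lpl had H2-DMa at 301 ± 66.4 CPM and Cd74 at 172 to 705 CPM. In the 157 cells led by the interferon-responsive genes Ifit3 and Ifit1, H2-DMa was 355 ± 49.3 CPM and Cd74 was 75.7 ± 59.4 CPM. Cd74 in the Ccl4 cluster therefore exceeded that in the 4 largest clusters (11.9 to 163 CPM) in every library, on 96 UMIs in all.

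The cells richest in Cd74 were also those richest in its partners. The 1% of cells highest in Cd74 held 90.4% ± 2.21 of H2-Aa UMIs, 91.7% ± 0.86 of H2-Eb1 UMIs and 77.2% ± 4.89 of H2-Ab1 UMIs, but 3.25% ± 1.17 of H2-DMa UMIs and 1.85% ± 1.14 of H2-Oa UMIs, while they held 1.48% ± 0.20 of all UMIs. Ranked by H2-DMa instead, the top 1% of cells held 70.5%, 41.5%, 68.5% and 56.8% of Cd74 UMIs. The Cd74-rich cells thus stood among the highest cells for H2-DMa too, although they carried little of its total.

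Across cells the genes most like Cd74, by the lowest Pearson correlation of log values over the 4 libraries (2576 to 3692 cells each), were H2-Eb1 (0.44), H2-Aa (0.42) and H2-Ab1 (0.30). Outside the 9 genes they were Fxyd5 (0.28), Ccr2 (0.15), a chemokine receptor of monocytes, Apoe (0.14), Crip1 (0.14) and Pf4 (0.11). For H2-DMa they were Ctss (0.08), which encodes the protease cathepsin S, Fth1 (0.06), Cd52 (0.05), Trf (0.05) and Cd81 (0.05), all too weak in sparse counts to count as a finding. H2-DMa and H2-DMb1, the 2 chains of 1 heterodimer, had correlations of 0.01 to 0.07. In thinned cells both were found together in 6.42% of cells, against 6.20% from the product of their separate shares. These values share the depth and libraries of the cells and are given as descriptions.

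A list of 42 further genes, 34 of the pathway and 8 neighbours in the class II region of the chromosome, was examined next, of which 41 were in the table. Of the 35 at 10 CPM or more, 0 reached 2 times the even-spread share in every library, and the median ratio was 1.06. In the Pf4 and Plac8 cluster, 2 of the 35 were above the microglia-like clusters in all libraries, 15 were below and 18 overlapped, against 6.43% of all genes above and 19.3% below. Among those above was Ifi30, a lysosomal thiol reductase that acts on antigens (280 against 205 CPM). Among those below were Ctss, which trims the invariant chain (5641 against 9642 CPM), the protease Lgmn (2792 against 6698 CPM) and the regulator Irf8 (412 against 768 CPM). Genes of the machinery that binds the X box were present, with Rfxank at 19.9 ± 0.85 CPM and Rfxap at 28.7 ± 8.09 CPM over all cells, and overlapped between the classes. H2-Ob, the β chain of H2-O, was found at 24.1 to 33.7 CPM, and 44.8 ± 3.28 H2-Ob UMIs were counted per 100 H2-Oa UMIs in microglia-like clusters.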

How the data were processed

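The deposited files held whole-number UMI counts per gene and cell, with a matrix for each library. 10x Genomics 3′ libraries were made by the authors, who, per the labels, used Cell Ranger 2.2.0 with mm10 (GRCm38), so cells had been called and the counts were not normalised. Gene names were those of the files, with coordinates from GENCODE M21 joined by identifier.

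Cells with 400 or more genes and at most 10% mitochondrial UMIs were kept, with no doublet caller. Counts were summed per library and scaled to CPM. Clusters (scanpy 1.11.5, 2000 variable genes, 20 components, 15 neighbours, resolution 0.5) left out the 9 genes and 34 activation genes, and were named from marker lists. Genes at a mean of 10 CPM or more were tested, and for the 2 classes of cells also, chosen after the data were seen, those at 10 CPM in microglia-like clusters. Named genes were the 9 members, the 42 pathway genes, genes that lead a cluster, and the 5 most like Cd74 and H2-DMa. Members and lists were chosen with earlier results of these data known. TMM (edgeR 4.0.16) and DESeq2 1.42.0 size factors served as alternative scalings only. Intervals (95%, exact Poisson or Clopper-Pearson) and the floor of 3 UMIs cover counting error only. The range test and the top 1% share were tested on simulated data. The study's methods and supplement report that 1 animal of this experiment spent extra time at room temperature because the sorter clogged, and name it as the final mouse, Sample 4. The supplement also reports that cells with its activation signature came almost only from that sample. Here the 34 activation genes summed to 5489 CPM in replicate 4, against 3184 to 3310 CPM in the others. The sample titles carry the numbers 2, 3, 6 and 8, so no library was assigned to that animal from the labels. The part of this event in the class II values of replicate 4 was not tested.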

Additional observations from a re-analysis of the deposited data

Results flagged for a closer look

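Dixon's range test was applied to 56 per-library values of the 8 genes at 10 CPM or more, and 7 had 1 library apart, each time replicate 4 on the high side. Chance alone flags about 1 in 20 such groups, and the 7 are not independent, since they come from the same cells and from genes that vary together. Cd74 in microglia-like clusters had a gap of 0.892 of the range on the log2(CPM + 1) scale (35.9, 37.1, 34.0 and 76.1 CPM). The share of thinned cells with a Cd74 UMI had a gap of 0.901 (3.52%, 3.16%, 3.13% and 7.04%). The share of cells with an H2-Aa UMI had a gap of 0.946, and 0.831 in thinned cells. For H2-Ab1 these were 0.895 and 0.837. The share of cells with an H2-Eb1 UMI had a gap of 0.91.

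The same library had 37 cells with 10 or more Cd74 UMIs, against 7 to 11 in the others, and 46 cells in the Pf4 and Plac8 cluster, against 19 to 25. It also had the highest sum of the 34 activation genes (5489 CPM against 3184 to 3310). Its median of 2786 UMIs per cell was not the highest. The part of any of these in the flagged values was not tested.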

How the results depend on the processing

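Of 413 alternative values for 51 results, 357 were classed as unchanged. They moved by less than the spread between libraries, stayed on the same side of the test or, for counts of genes, stayed within a set factor of the main count. Another 53 moved further, 3 newly passed the range test and 0 reversed. Leaving out 1 library always moves a mean over the 4 by less than that spread, so those values could only fall among the 357. A reversal was likewise impossible, since none of the genes had a library apart in the main setting. Restricting cells to microglia-like clusters raised the gap of Cd74 from 0.63 to 0.892 (0.926 in CPM in place of log2, an alternative chosen after the data were seen) and that of H2-Aa to 0.835 in CPM, and moved the mean Cd74 level to 45.8 CPM, the top 1% share to 40.3% for Cd74 and 5.62% for H2-DMa, and their difference to 34.7 percentage points. There Cd74 still reached 2 times the even-spread value in every library and H2-Ab1 did not (lowest ratio 1.04), while H2-Aa and H2-Eb1, with mean even-spread values of 62.4% and 81.95%, could not. The Cd74 share was 79.8% in the top 0.5% of cells and 82.2% once the deepest 1% of cells were left out. The H2-DMa share was 4.79% when cells were ranked by share of their total, 8.23% in cells thinned to 1000 UMIs (difference from Cd74, 75.3 percentage points), 3.66% in the top 0.5% and 10.8% in the top 2%. Cells with an H2-DMa UMI fell to 31.0% when thinned to 1000 UMIs. A gate on markers of other cell types, which took 1129 cells, 101 of them in the Pf4 and Plac8 cluster, put 10.9% of H2-DMa UMIs outside microglia-like cells. The count of concentrated genes was 5 at 5 times the even-spread value and 6 in microglia-like clusters, against 16, and 17 to 21 when 1 library was left out. The count of genes with 1 library apart was 2052 without the filter on level, against 354. Leaving out 1 library gave mean Cd74 levels of 182 (without replicate 4) to 350 CPM and H2-DMa levels of 388 to 394 CPM. It gave shares of cells with a UMI of 1.52% to 3.08% for H2-Aa and 1.04% to 2.29% for H2-Eb1, lowest without replicate 4. No paired comparison between groups was possible because the libraries form a single group, and the sign-flip test paired genes within libraries. Counts of 1 or 2 UMIs per cell limit what can be said of Ciita, H2-DMb2 and H2-Oa.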
